A study of Mus musculus with 8 samples.

Results

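Fc receptors and paired immunoreceptors set how strongly a macrophage responds to antibody-coated particles and to neighbouring cells, and 10 of their genes are described here in RAW264.7, a virus-transformed line of mouse cells that resemble macrophages. The genes were the Fc gamma receptors Fcgr1, Fcgr3 and Fcgr4, their shared signalling chain Fcer1g, the inhibitory Fc receptor Fcgr2b, and the paired receptors Cd200r1, Cd300a, Sirpa, Pilra and Pilrb1. The rule took them by gene name and used no measured value, but the members were chosen with earlier results of these data known. They made up 10 of the 27343 genes on the array, with 20 of its 41174 probes. All 10 were among the 15439 genes tested, and 19 of their 20 probes passed the filter on dim signals. The groups were cells given interleukin-13 (IL-13) together with all-trans retinoic acid (ATRA), cells given IL-13, cells given ATRA, and untreated cells. Each was measured once at 12 h and once at 24 h on one-colour Agilent whole mouse genome arrays, 8 arrays in all. The labels call the IL-13 cells M2 macrophages, give the combination as M2 polarization suppressed, and call the cells with ATRA alone and the untreated cells unpolarized. Doses and the number of separate cultures were not given, so a p-value here reflects how far these arrays spread, which may be technical. The line is 1 transformed cell population in serum-containing medium, which is a limit on it as a model of tissue macrophages.

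Activating Fc receptors capture the constant part of IgG and signal through the immunoreceptor tyrosine-based activation motif (ITAM) of the common gamma chain, which recruits the kinase Syk and leads to phagocytosis and cytokine release. Fcgr2b binds the same antibodies but carries an inhibitory motif (ITIM) that recruits the phosphatase SHIP, so the balance of the activating and inhibitory forms sets the threshold for a response. Paired receptors follow the same logic for other ligands: Pilra carries an ITIM and its close relative Pilrb1 couples to an activating adaptor, while Cd200r1, Cd300a and Sirpa deliver inhibitory signals on meeting CD200, exposed phospholipids and CD47. In macrophages IL-13 acts through STAT6, and ATRA acts through nuclear retinoic acid receptors.

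Levels below are log2 processed signals after each array was scaled to its 75th percentile, and differences are on the same log2 scale. The fitted difference of a gene is the mean of its 12 h and 24 h differences, with a standard error (SE) from limma, a linear model fitted to all 15439 genes on all 8 arrays with a term for time. The 2 times thus served as the replicates, and slide 1 held every 12 h array and slide 2 every 24 h array, which leaves time inseparable from slide. A gene was called when its p, adjusted by Benjamini-Hochberg across every gene tested, was below 0.05. The difference at a single time rests on 1 array a group and has no test. Levels were not set against each other between probes, which bind their targets with different strength. In these bulk samples, fewer cells of a type and less RNA per cell cannot be told apart.

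Over the arrays, the signal at the 75th percentile was 431 to 713, both ends being IL-13 arrays, and from 54.1% to 61.4% of probes were well above background, with 0 saturated. Of 8 macrophage markers, 7 were well above background on all 8 arrays, while Mertk was so on 3. Markers of mast cells and basophils, and of fibroblasts and epithelium, were not well above background on any array (0 of 4 in each list). The B cell and NK cell lists had 0 markers well above background on all 8 arrays, and the T cell and neutrophil lists had 2 of 4 each.

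The array probes and the regions upstream of the genes are shown first, since the measurements turn on what the probes bind and since Pilra and Pilrb1, whose differences were of very different size, are close copies. The probe of Pilra lies on the minus strand of chr5:138264800-138265232 (mm9, the build in the file headers) and spans 433 bases, so that its 60 bases cross at least 1 splice junction. One of the 2 probes of Cd200r1, on the plus strand of chr16:44792935-44794321, spans 1387 bases and crosses a junction likewise, so both read spliced RNA. It is not the probe behind the Cd200r1 levels and calls below, which come from the brighter probe at chr16:44794670-44794729, with no junction within its 60 bases. The fitted IL-13 difference of that brighter probe was 2.47, and the mean difference on the junction probe was 2.51. The probe of Pilrb1 lies at chr5:138293523-138293582. Both sequences are those of the deposited files.
Cd200r1 junction probe: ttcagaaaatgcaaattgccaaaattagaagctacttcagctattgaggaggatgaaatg
Pilra probe: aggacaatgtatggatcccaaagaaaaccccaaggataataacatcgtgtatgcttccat

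The promoter windows below, from 250 bases before to 50 after the start of the gene, come from RefSeq (GRCm38.p6), which held 8 of the 10 members. Cd200r1 and Sirpa were not matched. The 4 windows shown are those of the activating Fc receptors Fcgr1 and Fcgr4 and those of the paired copies Pilra and Pilrb1. Fcgr1 and Fcgr4 were taken for their signs against untreated cells, negative with IL-13 and positive with ATRA, though none of these differences was called. Capitals mark matches to the letters searched on both strands. These were the STAT sites, TTC and GAA with 4 or 3 bases between them, the retinoid receptor half-site AGGTCA, the PU.1 site GAGGAAGT and the interferon response element, GAAA repeated after 2 bases, and no match overlapped another. The windows are Fcgr1 at chr3:96293920-96294219 (minus strand), Fcgr4 at chr1:171018676-171018975 (plus strand), Pilra at chr5:137836229-137836528 (minus strand) and Pilrb1 at chr5:137858000-137858299 (minus strand).
Fcgr1: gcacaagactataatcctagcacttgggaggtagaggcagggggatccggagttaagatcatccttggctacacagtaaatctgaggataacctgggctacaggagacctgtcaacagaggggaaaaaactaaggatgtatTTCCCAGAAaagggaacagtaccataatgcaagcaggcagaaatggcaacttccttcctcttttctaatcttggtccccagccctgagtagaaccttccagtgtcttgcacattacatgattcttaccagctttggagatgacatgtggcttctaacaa
Fcgr4: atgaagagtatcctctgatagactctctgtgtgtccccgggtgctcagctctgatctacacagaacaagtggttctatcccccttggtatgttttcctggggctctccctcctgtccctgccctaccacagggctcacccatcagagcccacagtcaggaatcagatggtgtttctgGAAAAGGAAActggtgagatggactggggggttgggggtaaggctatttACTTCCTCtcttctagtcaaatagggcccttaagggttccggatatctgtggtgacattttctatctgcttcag
Pilra: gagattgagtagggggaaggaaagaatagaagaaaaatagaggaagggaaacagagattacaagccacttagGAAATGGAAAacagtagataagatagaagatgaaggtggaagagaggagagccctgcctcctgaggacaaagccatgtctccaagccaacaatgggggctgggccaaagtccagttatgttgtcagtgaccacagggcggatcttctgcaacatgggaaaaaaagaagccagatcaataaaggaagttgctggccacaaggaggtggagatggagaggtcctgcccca
Pilrb1: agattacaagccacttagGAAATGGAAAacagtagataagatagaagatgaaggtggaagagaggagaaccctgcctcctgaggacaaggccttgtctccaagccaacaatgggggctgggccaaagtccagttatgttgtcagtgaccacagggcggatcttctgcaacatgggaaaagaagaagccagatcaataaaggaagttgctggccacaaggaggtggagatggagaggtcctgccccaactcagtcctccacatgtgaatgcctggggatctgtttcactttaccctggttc

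The STAT site with 4 bases between, the spacing STAT6 prefers, was in 0 of 9 member windows (Fcgr3 has 2 windows) and in 6.95% of all 32851 windows in RefSeq. The STAT site with 3 bases between was in 8.30% of all windows and among the members in that of Fcgr1, 109 bases before the start. AGGTCA was in 16.3% of all windows and among the members in that of Fcgr2b, 211 bases before the start. The interferon response element was in 3.44% of all windows and in those of 3 members, Fcgr4, Pilra and Pilrb1, and the PU.1 site was in 3.20% of all windows and in that of Fcgr4. The windows of Pilra and Pilrb1 were the same at 242 of 246 aligned bases (98.4%), and both hold GAAATGGAAA. These matches describe letters within the windows only.

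Among the activating Fc receptors, the differences of Fcgr1 and Fcgr3 from untreated cells had opposite signs with IL-13 and with ATRA, and were under 2-fold and not called. The call among these genes was that of Fcgr3, which was lower with both agents than with IL-13. Fcgr1, the high-affinity IgG receptor, had a log2 level of 14.15 at 12 h and 14.27 at 24 h with IL-13 and ATRA together, 13.64 and 13.23 with IL-13, 14.73 and 14.69 with ATRA, and 14.01 and 13.98 untreated. Both ATRA arrays were the highest of the 8 and both IL-13 arrays the lowest, and no treatment overlapped another. The share of all genes whose treatments separate in this way was not counted, here or for the genes below. The fitted difference was 0.71 ± 0.16 for ATRA against untreated (limma adjusted p = 0.107) and −0.56 ± 0.16 for IL-13 against untreated (adjusted p = 0.135), so neither was called. With both agents against IL-13, Fcgr1 differed by 0.51 at 12 h and 1.04 at 24 h, a fitted 0.77 ± 0.16 (limma adjusted p = 0.078), which was called without the 12 h IL-13 array (0.99, adjusted p = 0.0468).

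Fcgr3, a low-affinity IgG receptor, had log2 levels of 10.81 and 10.86 at 12 h and 24 h with both agents, 11.80 and 12.24 with IL-13, 11.01 and 11.08 with ATRA, and 11.54 and 11.51 untreated. Again the 4 treatments did not overlap, but IL-13 lay at the top and the combination at the bottom. Fcgr3 fell with IL-13 and ATRA against IL-13, with differences of −0.99 at 12 h and −1.38 at 24 h, a 2.27-fold difference (fitted −1.18 ± 0.15, limma adjusted p = 0.029). It was 1 of 2 members called in that comparison, in which 2.67% of all genes were called. Leaving out 1 array at a time kept that call in 1 of 8 fits, the one without the 12 h IL-13 array, with the adjusted p between 0.0317 and 0.191. Against untreated cells the differences of Fcgr3 were 0.49 ± 0.15 with IL-13 (limma adjusted p = 0.149), −0.48 ± 0.15 with ATRA (adjusted p = 0.219) and −0.69 ± 0.15 with both (adjusted p = 0.0523). The last was called with time as a random replicate block (0.0439), with only probes detected on all 8 arrays (0.0363) and without either IL-13 array (0.0328 each).

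Fcgr4, a mouse receptor of intermediate affinity for IgG2 subclasses, spanned 0.97 log2 units over the 8 arrays. Its levels were 7.11 and 7.52 with both agents at 12 h and 24 h, 6.76 and 7.21 with IL-13, 7.73 and 7.67 with ATRA, and 7.30 and 7.52 untreated. The ATRA arrays lay above the others, and those of the combination overlapped both the IL-13 and the untreated ones. Its sign was negative with IL-13 (−0.42 ± 0.16, limma adjusted p = 0.192) and positive with ATRA (0.29 ± 0.16, adjusted p = 0.492) against untreated cells, as for Fcgr1, and neither difference was called. Fcer1g, the ITAM chain that these receptors need at the surface, stayed between 15.72 and 16.39, a range of 0.67 against a median of 0.66 over all genes tested. Its differences from untreated cells were −0.35 ± 0.17 with both agents, −0.02 ± 0.17 with IL-13 and −0.19 ± 0.17 with ATRA, with limma adjusted p of 0.246, 0.963 and 0.707.

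Fcgr2b, the inhibitory Fc receptor, was 4.68-fold higher with IL-13 than in untreated cells, and the combination lay between them. Its levels were 9.29 and 8.72 at 12 h and 24 h with both agents, 10.18 and 10.60 with IL-13, 7.36 and 8.25 with ATRA, and 8.17 and 8.16 untreated. The IL-13 arrays were the highest 2 and the arrays of the combination the next 2, while ATRA and untreated arrays overlapped. The IL-13 difference was 2.01 at 12 h and 2.44 at 24 h, but with a fitted 2.23 ± 0.34 it missed the threshold (limma adjusted p = 0.0575). Fcgr2b and Cd200r1 were the 2 members at least 2-fold higher with IL-13 at both times, as were 1.33% of all genes. The fit called Fcgr2b with normexp background correction (adjusted p = 0.0199), with only probes detected on all 8 arrays (0.0394), with no replicate block for time (0.0439) and with time as a random block (0.0357).

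Against IL-13, Fcgr2b differed by −0.90 at 12 h and −1.88 at 24 h with the combination, a fitted −1.39 ± 0.34 that was not called (limma adjusted p = 0.115). Against ATRA it differed by 1.92 at 12 h and 0.47 at 24 h (1.19 ± 0.34, adjusted p = 0.273), so that the difference at 12 h was the larger. Its 3 probes gave IL-13 differences between 2.16 and 2.53, and the probe used has 10 spots on each array, whose signals varied with a coefficient of variation of 2.97% to 8.54%. Spots of 1 array share their RNA, so this covers spot error only.

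The IL-13 difference of Fcgr2b from untreated cells exceeded that of each activating receptor at both times, although none of these 4 genes was called. The IL-13 difference of Fcgr2b minus that of Fcgr1 was 2.37 at 12 h and 3.20 at 24 h, a mean of 2.79 or 6.90-fold. Against Fcgr3 the same contrast was 1.75 and 1.71 (mean 1.73), since Fcgr3 lay higher with IL-13 too, and against Fcgr4 it was 2.54 and 2.75 (mean 2.65). With ATRA against untreated cells, Fcgr2b minus Fcgr1 was −1.53 at 12 h and −0.61 at 24 h. With both agents against IL-13 it was −1.40 and −2.93, but Fcgr2b minus Fcgr3 was 0.09 and −0.50, because Fcgr3 lay lower there along with Fcgr2b. These contrasts of log2 differences were not tested.

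**Figure D1:**
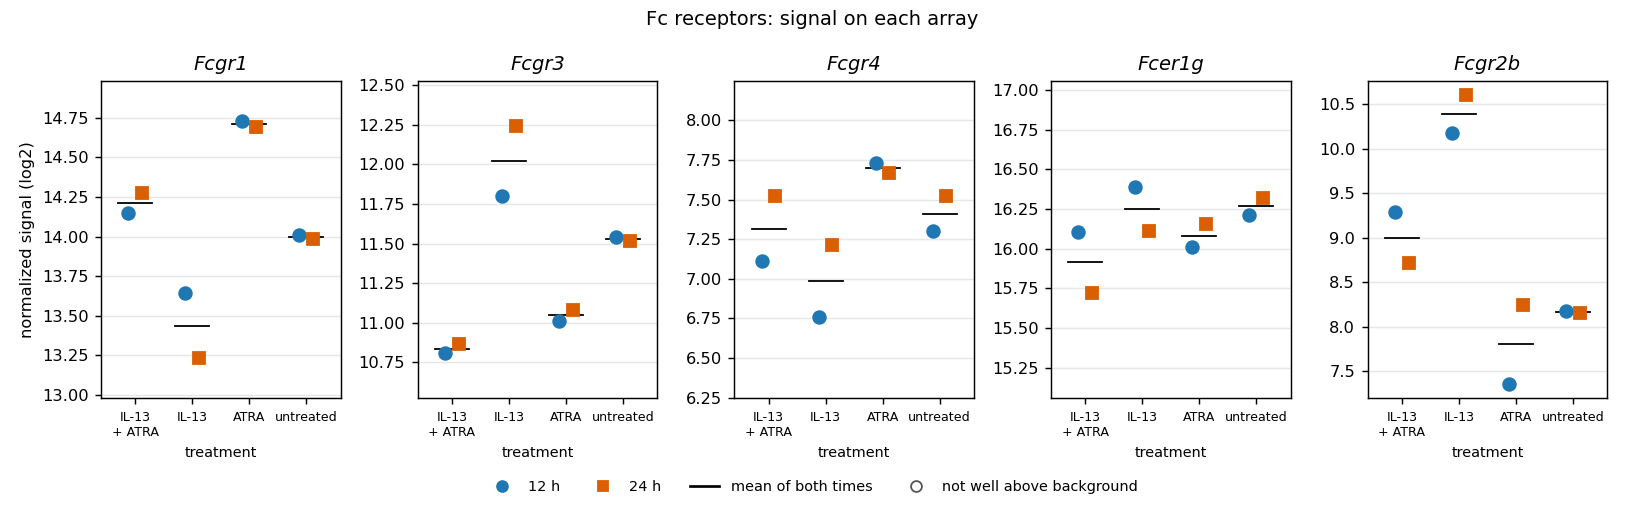
Log2 normalized signal (vertical axis, scaled separately for each gene) of the Fc receptor genes on each of the 8 arrays, by treatment. Circles are 12 h, squares 24 h and bars the mean of both; Fcgr2b lies at 10.18 and 10.60 with IL-13 against 8.17 and 8.16 untreated, while Fcgr1 is lowest with IL-13.

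Cd200r1, which restrains macrophages on contact with CD200-bearing cells, rose with IL-13 and with the combination. Its levels were 8.70 and 8.11 at 12 h and 24 h with both agents, 8.96 and 9.19 with IL-13, 6.86 and 7.44 with ATRA, and 6.34 and 6.87 untreated. Every array with IL-13 lay above every array without it. Against untreated cells the difference was 2.47 ± 0.30 with IL-13, or 5.53-fold (limma adjusted p = 0.0369), and 1.80 ± 0.30 with both agents, or 3.49-fold (adjusted p = 0.0301). IL-13 called 2 of the 10 members against untreated cells, where 1.22% of all genes were called, and the combination called 3, where 8.5% were called. The difference with both agents was 2.36 at 12 h and 1.24 at 24 h, the second probe gave 2.11 and 1.67, and that with IL-13 was 2.62 and 2.32.

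The IL-13 call of Cd200r1 was kept in 2 of 8 fits that each left out 1 array, those without an array of the combination (adjusted p from 0.0351 to 0.227). The call with both agents was kept in 5 of 8, and lost without the 12 h untreated array (0.177), the 24 h untreated array (0.106) or the 12 h array of the combination (0.066). Against ATRA, the combination differed by 1.25 ± 0.30 (limma adjusted p = 0.213), with 1.84 at 12 h and 0.67 at 24 h. No member was called in that comparison (0 of 10), in which 0.356% of all genes were called and 4 members had an unadjusted p under 0.05, as had 13.04% of all genes. ATRA alone gave 0.55 ± 0.30 for Cd200r1 (limma adjusted p = 0.497).

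The summed signal of the dendritic cell markers ordered the treatments as the mean level of Fcgr2b did, through 1 gene, Itgax. The sum's log2 level was 9.02 to 9.64 with both agents, 10.73 to 10.87 with IL-13, 6.01 to 6.33 with ATRA and 6.93 to 7.17 untreated. Itgax, an integrin that macrophages also express, ranged from 4.67 to 10.84. The other genes of that list of 4, which are more specific to dendritic cells, varied far less: Zbtb46 lay between 4.17 and 5.04 on all 8 arrays, Flt3 between 3.12 and 3.86 and detected on 7, and Cd209a was on 0 arrays. The summed macrophage markers stayed between 17.95 and 18.49. The part of these markers in the 2 receptors' results was not tested.

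Cd300a, an ITIM receptor for phospholipids exposed on dying cells, fell with ATRA whether or not IL-13 was present. Its levels were 9.93 and 9.27 at 12 h and 24 h with both agents, 11.45 and 11.27 with IL-13, 9.91 and 9.50 with ATRA, and 11.30 and 11.37 untreated. The 4 arrays with ATRA lay between 9.27 and 9.93 and the 4 without it between 11.27 and 11.45. The difference was −1.63 ± 0.19 with ATRA against untreated cells, 3.10-fold lower (limma adjusted p = 0.0312), and −1.73 ± 0.19 with both agents against untreated cells (adjusted p = 0.0112). ATRA called 2 of the 10 members against untreated cells, where 1.83% of all genes were called. Against IL-13, the combination gave −1.76 ± 0.19, 3.38-fold lower (adjusted p = 0.0239), with −1.51 at 12 h and −2.003 at 24 h.

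With IL-13 alone, Cd300a differed by 0.02 ± 0.19 from untreated cells (limma adjusted p = 0.945), but its dimmer second probe gave −0.50. That was the largest spread between probes of 1 gene, 0.53, and the sign of the IL-13 difference therefore depends on the probe. The ATRA difference was −1.63 on both probes. The ATRA call was kept in 0 of 8 fits that each left out 1 array (adjusted p from 0.052 to 0.198), and that of the combination against untreated cells in 6 of 8, being lost without the 24 h untreated array (0.0685) or the 24 h array of the combination (0.0668). The call against IL-13 was kept in 3 of 8, those without either untreated array or the 12 h IL-13 array (0.0444 to 0.126). Over these fits the ATRA difference ran from −1.87 to −1.39, so its direction held in each.

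Sirpa, the CD47 receptor that blocks phagocytosis of self cells, varied least, by 0.50 log2 units over the 8 arrays. It lay between 13.74 and 14.23, with fitted differences from untreated cells of −0.19 ± 0.13 with both agents, −0.05 ± 0.13 with IL-13 and −0.28 ± 0.13 with ATRA. None of these was called (limma adjusted p of 0.38, 0.823 and 0.395).

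Pilrb1, the activating member of the PILR pair, was well above background in untreated cells and near or below that limit in every treated group. Its levels were 2.26 and 1.16 with both agents at 12 h and 24 h, 1.65 and 2.63 with IL-13, 1.94 and 0.93 with ATRA, and 6.32 and 5.66 untreated. Only the untreated arrays and the 24 h IL-13 array had a signal well above background, 3 of 8, and the last was close to its array's limit of 2.57. Because both arrays of the other groups were not well above background, their folds are lower bounds, set against the dimmest signal detected on each array. Pilrb1 fell at least 7.33-fold with ATRA (limma adjusted p = 0.0303) and at least 6.64-fold with both agents (adjusted p = 0.0139) against untreated cells. It passed the filter on dim signals through the untreated group alone, where it was highest. Its calls against untreated cells, and its place in the counts of members called, are therefore not support apart from that filter. With IL-13 against untreated cells Pilrb1 fell too (limma adjusted p = 0.0464), but 1 of the 2 IL-13 arrays measured it. That array, at 24 h, gave a difference of −3.02. At 12 h the IL-13 signal was below its array's limit of 3.69, so that Pilrb1 was at least 6.19-fold lower there. The fitted difference of −3.85 ± 0.52 uses the undetected 12 h signal as it stands, and was −2.89 without that array (adjusted p = 0.0257) and −4.80 without the 24 h IL-13 array (adjusted p = 0.0138).

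The IL-13 call of Pilrb1 was lost with quantile normalization (adjusted p = 0.0745), with the authors' values (0.0735), with the mean of all probes (0.0519), with only the arrays compared (0.0916) and with no filter on dim probes (0.233). Leaving out 1 array at a time kept 2 of 8 such fits for IL-13 (0.0138 to 0.255), 2 of 8 for ATRA (0.00508 to 0.205) and 4 of 8 for the combination (0.00282 to 0.105). The calls kept were those without an IL-13 array, and for the combination also those without an ATRA array. Normexp background correction reduced the differences to −0.94 with both agents, −1.02 with IL-13 and −0.99 with ATRA. These are smaller than the lower bounds given above, which hold for the processed signals only. The signals of the treated arrays set the size of the fitted difference, and they were at the detection limit.

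Pilra, the ITIM-bearing partner, was not called in any comparison of the fit to all 8 arrays, and its fitted differences from untreated cells were at most 1.07 log2 units in size. Its levels were 5.53 and 4.30 with both agents at 12 h and 24 h, 5.64 and 5.24 with IL-13, 5.96 and 5.29 with ATRA, and 6.07 and 5.91 untreated. The untreated level was highest at each time. The difference with both agents was −0.54 at 12 h and −1.61 at 24 h (fitted −1.07 ± 0.26, limma adjusted p = 0.0669), and it was called with only probes detected on all 8 arrays (adjusted p = 0.0461). With IL-13 it was −0.55 ± 0.26 and with ATRA −0.37 ± 0.26 (limma adjusted p of 0.255 and 0.609). The second Pilra probe was well above background on 0 of 8 arrays. How far RNA of one gene of this pair binds the probe of the other was not tested.

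**Figure D2:**
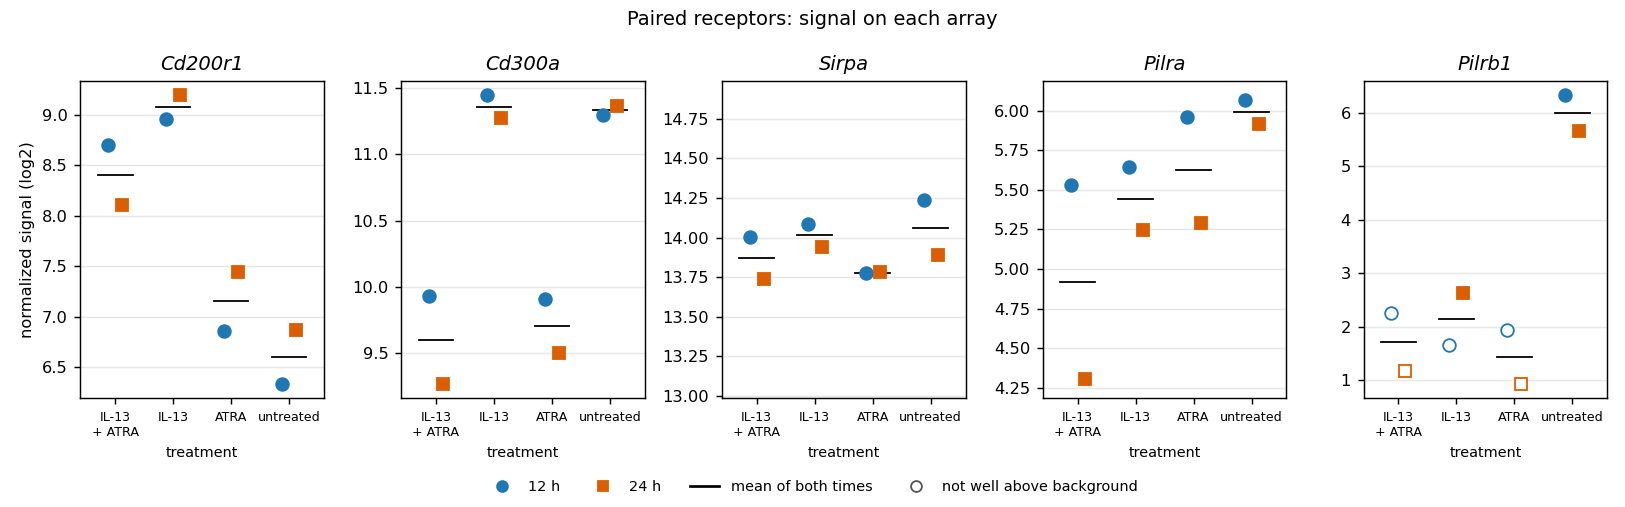
Log2 normalized signal (vertical axis, scaled separately for each gene) of the 5 paired receptor genes on each of the 8 arrays, by treatment. Filled symbols are well above background and open ones are not; Cd300a lies between 9.27 and 9.93 on the 4 arrays with ATRA and between 11.27 and 11.45 on the others, and Pilrb1 lies at 6.32 and 5.66 untreated.

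Across the members, the fitted difference was negative for 7 of 10 genes with ATRA and with the combination against untreated cells, and for 6 of 10 with IL-13. Their median difference was −0.27 with both agents, −0.03 with IL-13 and −0.32 with ATRA, beside medians of −0.01, 0.02 and −0.01 over all genes tested. The median size of the difference, without its sign, was 0.76 with both agents, 0.52 with IL-13 and 0.42 with ATRA, beside 0.25, 0.24 and 0.16 over all genes. With both agents against IL-13 it was 0.60, beside 0.19, and 8 of 10 members were lower in sign. The comparisons with untreated cells share the same 2 untreated arrays. With no filter on dim probes, which tests 27321 genes, no member was called by limma in any comparison, with adjusted p of 0.0822 to 0.233 for the 9 differences called above. Few genes of any kind were called there: 1 with IL-13, 4 with ATRA and 35 with both agents, each against untreated cells. Both agents called 7 genes against IL-13 and 4 against ATRA. With only the arrays compared in the fit, Cd200r1 with IL-13 (0.0605) and, with both agents against IL-13, Fcgr3 (0.122) and Cd300a (0.0974) also missed the threshold. In these 2 comparisons that fit called 16 and 8 of all 15439 genes.

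**Figure D3:**
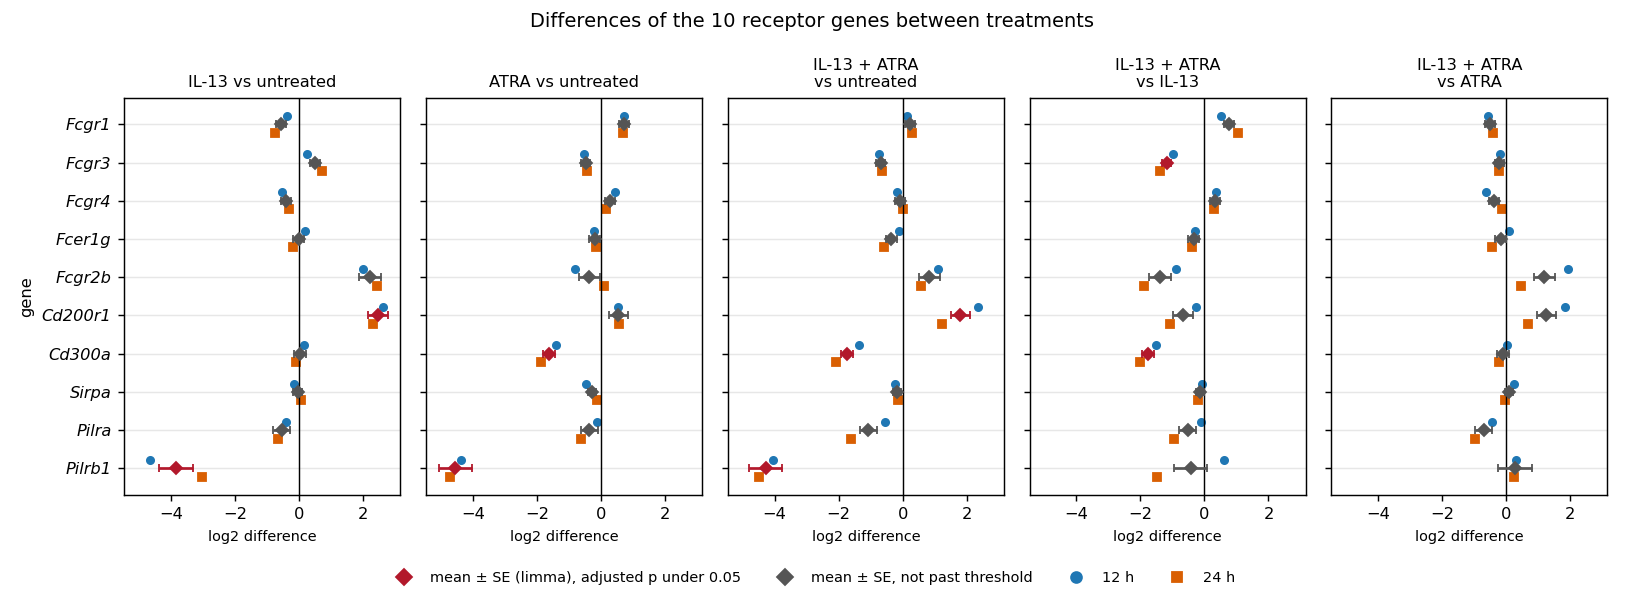
Log2 difference (horizontal axis) of each of the 10 genes in the 5 treatment comparisons, as the limma mean ± SE (diamonds, red where the adjusted p was under 0.05) with the 12 h and 24 h differences beside it. Cd300a is lower in all 3 comparisons that add ATRA, and Cd200r1 is higher with IL-13 (2.47) and with both agents (1.80) against untreated cells.

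The treatments were also tested for an interaction, that is, whether the effect of ATRA differed with IL-13 present. No member was called (0 of 10), as was the case for all but 0.0194% of genes, and 3 had an unadjusted p under 0.05, as had 3.67% of all genes. These were Cd200r1 (−1.21 ± 0.43), Fcgr3 (−0.71 ± 0.21) and Pilrb1 (4.12 ± 0.74), the last with a limma adjusted p of 0.677 and resting on signals not well above background. Without the 24 h IL-13 array that interaction of Pilrb1 was called (5.08, adjusted p = 0.0387). Between 24 h and 12 h, over all treatments, 0 members and 0% of genes were called by limma, and Pilra alone had an unadjusted p under 0.05 (−0.61 ± 0.19, adjusted p = 0.363), 1 of 10 beside 12.1% of all genes. The effects of IL-13 and of ATRA were not called as different between the times for any member (0 of 10 in each), with 1 and 2 members at an unadjusted p under 0.05, beside 9.83% and 9.42% of all genes. This came from a separate limma model with all pairwise interactions and 1 residual degree of freedom. It called 0 of all 15439 genes for either agent, so it cannot show that the effects were the same at both times.

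Of the members, 7 genes had more than 1 probe that passed the filter. Over the 5 comparisons, 33 of 35 gene and comparison pairs had the same sign on every probe. The exceptions were the IL-13 differences of Cd300a and of Fcer1g, both close to 0 on the probe used.

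**Figure D4:**
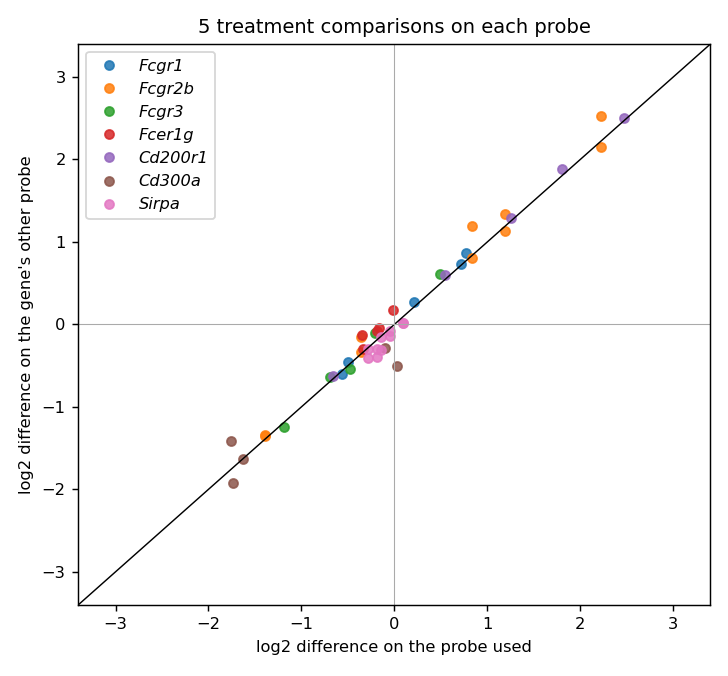
Log2 difference on a gene's other probes (vertical axis) against that on the probe used (horizontal axis) for the 7 genes with more than 1 probe, in 5 treatment comparisons; the line marks equal values. The points follow the line, with the largest gap, 0.53, for Cd300a with IL-13.

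Over the 8 arrays, the genes most like each member with a range of at least 2 log2 units were found by Pearson's r among 11615 genes that were detected on all arrays and named through RefSeq. The points share their arrays, scaling and time, and r is a description. For Fcgr2b they were Ccdc80 (r = 0.992), Il6st (0.986) and Fas (0.984), of which Il6st spanned only 0.46 log2 units. For Cd200r1 they were Tmem189 (0.988), Pip4p1 (0.987) and Klc1 (0.985), which spanned 0.38 to 0.42 units, and for Cd300a they were Capn2 (0.995), Lrrc17 (0.993) and Dnase1l1 (0.992). For Pilrb1 they were Bdkrb1 (0.959), Gper1 (0.952) and Cdk6 (0.944), each of them highest on the 2 untreated arrays. Bdkrb1 and Cdk6 spanned only 0.69 and 0.52 log2 units, and Gper1 2.82. Pilrb1 itself was well above background on 3 of the 8 arrays, so its r rests largely on signals at the detection limit.

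Among other paired activating and inhibitory receptors, 22 of 32 listed genes were tested, and the genes called lay in both directions. This list and those below were chosen with earlier results of these data known. Of all genes, 1.22% were called with IL-13 and 1.83% with ATRA against untreated cells. With IL-13 against untreated cells, 2 rose and 0 fell: Lair1, an ITIM receptor for collagen, by 2.44 ± 0.21 (limma adjusted p = 0.0203), and Cd200r3, an activating relative of Cd200r1, at least 3.63-fold (adjusted p = 0.0309). Cd200r3 was well above background on 2 arrays, both with IL-13 alone. It passed the filter only through that group, where it was highest, so its call is not support apart from the filter. With ATRA against untreated cells, 1 rose and 4 fell, of which the largest falls were Cd300lf (−1.80 ± 0.25), Pirb, an ITIM receptor for MHC class I (−1.75 ± 0.18), and Cd300e (−1.35 ± 0.16), with limma adjusted p of 0.0411, 0.0258 and 0.0306. The other 2, named after their values were seen, were Clec4a2 (−1.32) and Ceacam1 (0.89). The list's median difference was 0.01 with IL-13 and −0.24 with ATRA, beside 0.02 and −0.01 over all genes, and with both agents against IL-13 it was −0.71, beside −0.02.

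In the combination against untreated cells, 3 of the 22 rose and 5 fell, where 8.5% of all genes were called. The largest differences were those of Lair1 (2.20 ± 0.21, limma adjusted p = 0.00866), Pirb (−1.56 ± 0.18, adjusted p = 0.012) and Cd300c2 (−1.51 ± 0.26, adjusted p = 0.0313). Of all genes, 2.67% were called for the combination against IL-13 and 0.356% against ATRA. Set against IL-13, the combination had 2 that rose and 3 that fell, led by Clec4a2 (−2.05 ± 0.18), Pirb (−1.92 ± 0.18) and Trem1, which amplifies inflammatory signals (1.56 ± 0.13), with limma adjusted p of 0.0152, 0.0163 and 0.0152. Set against ATRA, it had 1 that rose and 0 that fell: Lair1 by 2.24 ± 0.21 (adjusted p = 0.0329). Lair1 was thus higher in each comparison that added IL-13, as Cd200r1 was in sign, and Pirb was lower in each that added ATRA, as Cd300a was.

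**Figure D5:**
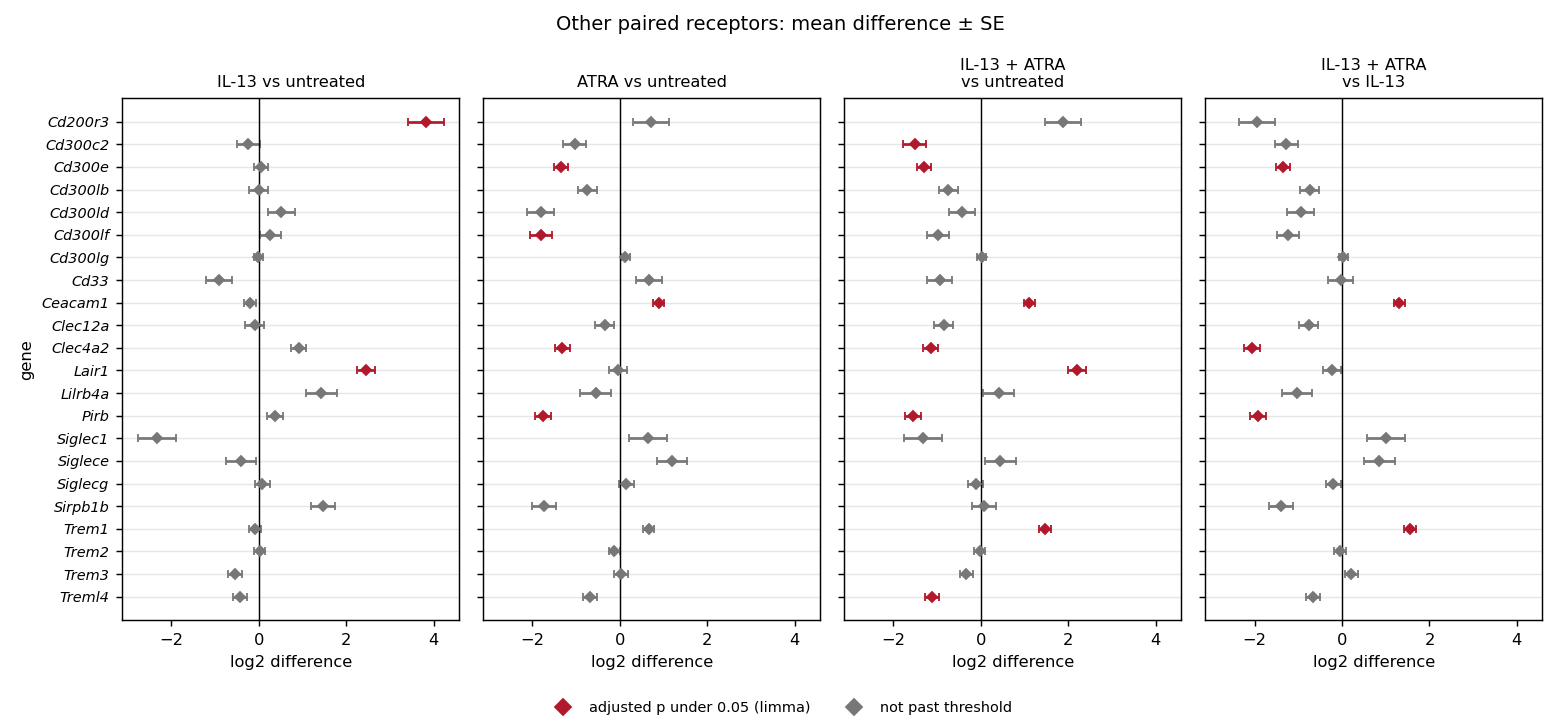
Log2 difference (horizontal axis, limma mean ± SE) of the 22 other paired receptors tested, in 4 comparisons, in red where the adjusted p was under 0.05. Lair1 lies at 2.44 with IL-13 and 2.20 with both agents against untreated cells, and Pirb at −1.75 with ATRA; for Cd200r3 the fitted difference rests on untreated signals not well above background.

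Below the receptors, 22 of 23 listed ITAM signalling genes were tested, with median differences from untreated cells of −0.05 with both agents, 0.02 with IL-13 and −0.04 with ATRA. Of all genes, 8.5% were called with both agents, 1.22% with IL-13 and 1.83% with ATRA against untreated cells. With both agents, 2.67% were called against IL-13 and 0.356% against ATRA. Prkcd, a protein kinase C of the Fc receptor pathway, rose by 1.21 ± 0.13 with IL-13 against untreated cells (limma adjusted p = 0.0285), the only gene of the list called there. Blnk, an adaptor below Syk, was the only one called with ATRA, and rose by 1.21 ± 0.17 (adjusted p = 0.0416). With both agents against untreated cells 3 rose and 1 fell, with Prkcd at 1.46 ± 0.13, Blnk at 1.14 ± 0.17 and Rac2, a GTPase of phagocytosis, at 0.60 ± 0.11 (adjusted p of 0.0071, 0.0215 and 0.0346). The gene that fell, named after its values were seen, was Vav1, an exchange factor for Rac (−0.53 ± 0.11, adjusted p = 0.0478). With both agents, Rac2 rose against IL-13 (0.68 ± 0.11, adjusted p = 0.0474) and Prkcd against ATRA (1.37 ± 0.13, adjusted p = 0.0329).

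Of 13 ITIM signalling genes, Dok3, an adaptor that restrains ITAM signals, fell with both agents by 0.77 ± 0.11 against untreated cells (limma adjusted p = 0.0202) and by 0.71 ± 0.11 against IL-13 (adjusted p = 0.0431). In these comparisons 8.5% and 2.67% of all genes were called. None of the 13 was called by limma in the other 3 comparisons, in which 2 had an unadjusted p under 0.05 with IL-13, 4 with ATRA and 2 with both agents against ATRA, beside 24.3%, 15.1% and 13.04% of all genes. Of 11 further Fc receptors 5 were tested, and Fcrl1 fell with both agents against untreated cells (−0.93 ± 0.19, adjusted p = 0.0484). Of 8 ligand genes 3 were tested and 0 were called by limma in any comparison, with 0 to 3 at an unadjusted p under 0.05, beside 13.04% to 28.7% of all genes. Cd200, the ligand of Cd200r1, was among the 5 ligand genes that did not pass the filter.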

How the data were processed

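Total RNA of 8 RAW264.7 samples was labelled with 1 dye and hybridized to Agilent arrays. The authors used Agilent Feature Extraction 10.7.1.1 on the scans, per the file headers. The deposited intensity values are its background-subtracted processed signals, not normalized between arrays, and the deposited files also hold other 0 or 1 flags per spot (well above background, saturated, non-uniform, outlying), per the file headers. The authors' table of log2 values, whose method was not given in the sources used here, served as an alternative. Its columns each had a median of 4.57, a minimum of 0.752 and a maximum of 18.2, and a Spearman correlation of at least 0.999996 with the signals of their own array.

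Control spots were left out, which left 43379 spots of 41174 probes on each array. Of these, the signals of the spots flagged non-uniform or outlying, 78 to 129 on each array, were left out too. Spots of a probe were averaged, and each array's log2 signals were shifted to a common 75th percentile. A probe was kept if both arrays of any 1 treatment had it well above background and no value was missing (24016 probes). Names came through RefSeq accessions for 27660 probes, symbols for 5595 and synonyms for 470, and 7449 kept the file's name. The brightest probe stood for each of 15439 genes. limma 3.58.1 in R 4.3.3 was fitted with treatment and time terms, with 3 residual degrees of freedom. Its moderation added 2.43 prior degrees of freedom around a log2 standard deviation of 0.15. The labels' replicate numbers are the 2 times, so the time term is the replicate block. With 1 array per treatment and time, their number limits the precision. The fit was tested on simulated data.

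All 10 members are named, up to 3 called genes with the largest difference per list and comparison, and the 3 genes most like each member that spans 2 log2 units. The members and lists were chosen with earlier results of these data known. Alternatives were normexp with an offset of 50, quantile normalization, the authors' values, no filter on dim probes, a filter on all 8 arrays, the mean of a gene's probes, only the arrays compared, no block for time, time as a random block, and each array left out. Genome coordinates of probes are those of the file headers (mm9), and promoters are RefSeq's (GRCm38.p6).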

Additional observations from a re-analysis of the deposited data

How the results depend on the processing

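The count of members called is small, so that 1 gene more or fewer is a large part of it. For IL-13 against untreated cells it was 2, and became 1 with the authors' values, with quantile normalization and with the mean of a gene's probes, and 0 with no filter on dim probes and with only the arrays compared. Over all genes the count there was 189. It became 162, 165 and 152 with the first 3 of these, 1 with no filter and 16 with only the arrays compared. For ATRA against untreated cells the count of members was 2, and became 1 with the filter on all 8 arrays, which leaves Pilrb1 untested, and 0 with no filter. Over all genes it was 282, and became 426 and 4. For both agents the count of members was 3 against untreated cells and 2 against IL-13. Both became 0 with no filter, and the second also with only the arrays compared. Over all genes these counts were 1312 and 412. They became 35 and 7 with no filter, and the second became 8 with only the arrays compared. Leaving out each array gave 0 to 1 members for IL-13, 0 to 1 for ATRA, 0 to 4 for both agents against untreated cells, 0 to 4 against IL-13, 0 against ATRA, 0 to 1 for the interaction and 0 for time. With no replicate block the counts of members were 3 for IL-13, 2 for ATRA, 3 for both agents against untreated cells, 2 against IL-13 and 0 against ATRA. Over all genes they were 164, 270, 1141, 345 and 69 in the same order. The counts over all genes moved as well, but not always in the same direction. With the filter on all 8 arrays, ATRA called fewer members and more genes. With no replicate block, IL-13 called more members and fewer genes. The cause of these changes was not tested, beyond the fewer arrays or more dim probes that an alternative itself brings.

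Signs turned mostly where the fitted difference was small. The largest that turned were −0.43 for Pilrb1 with both agents against IL-13 and −0.36 for Fcgr2b with ATRA against untreated cells. With normexp the signs that turned were the interaction of Fcgr1 (−0.0496), Fcgr4 (−0.0546) and Pilra (0.15), the IL-13 difference of Fcer1g (0.0657) and Sirpa (0.0223), and Pilrb1 with both agents against IL-13 (0.0752). With the authors' values and with quantile normalization they were Cd300a with IL-13 (−0.0373 and −0.0377) and the interaction of Fcgr4 (−0.0056 and −0.0078), and with the authors' values Sirpa with both agents against ATRA (−0.0008). With the mean of a gene's probes they were Cd300a (−0.24) and Fcer1g (0.0782) with IL-13 and the interaction of Cd300a (0.0437). Leaving out each array turned some, with ranges as follows. The interaction ran from −0.15 to 0.28 for Fcgr1, −0.18 to 0.25 for Fcgr4, −0.34 to 0.0355 for Fcer1g, −0.37 to 0.12 for Cd300a and −0.57 to 0.25 for Pilra. IL-13 gave −0.15 to 0.12 for Fcer1g, −0.22 to 0.26 for Cd300a and −0.15 to 0.0546 for Sirpa, and ATRA gave −0.83 to 0.11 for Fcgr2b. Both agents gave −0.20 to 0.0103 for Fcgr4 against untreated cells, and −1.39 (called without the 12 h IL-13 array, adjusted p = 0.0434) to 0.52 for Pilrb1 against IL-13. Against ATRA they gave −0.35 to 0.0205 for Fcer1g, −0.35 to 0.14 for Cd300a, −0.16 to 0.71 for Pilrb1 and −0.033 to 0.22 for Sirpa.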
